A study of Mus musculus with 18 samples.

Results

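The comparison set the KAP1 binding sites of a mouse hepatoma line against the H3K9me3 peaks of wild-type (WT) mouse embryonic fibroblasts (MEFs), and describes the KAP1 sites that carry the mark in fibroblasts. A KAP1 peak was counted as marked when it shared at least 1 bp with a WT MEF H3K9me3 peak, and a second count took KAP1 peaks within 1 kb of one. Of the 13366 KAP1 peaks of the list, 13143 lay on the 19 autosomes, and 1846 of these were marked. The other 11297 autosomal KAP1 peaks are called unmarked below. The H3K9me3 list held 14273 autosomal peaks, of which 2064 shared a base with KAP1.

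KAP1 (TRIM28) is a corepressor that does not read DNA itself. Krüppel-associated box zinc finger proteins (KZFPs) bind a sequence with their array of fingers and dock KAP1 there, and KAP1 in turn brings the histone methyltransferase SETDB1, which trimethylates lysine 9 of histone H3 (H3K9me3). KAP1 is known for holding transposable elements silent, for keeping methylation at imprinting control regions through ZFP57, and for coating the zinc finger exons of KZFP genes.

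KAP1 and SETDB1 came from Hepa 1.6, a liver hepatoma line taken from tumour BW7756 of a C57L mouse, with a WT genotype. The fibroblasts were embryonic and of strain C57BL/6 (C57BL/6J in the methods). WT MEFs carried the floxed alleles (Kap1 loxP/loxP). The methods name a growing Kap1 KO clone for RNA-seq of MEFs, and whether the same cells served for ChIP-seq is not given in the sources used here. H3K27ac, a mark of active promoters and enhancers, and H3K9me3 were taken in both fibroblast genotypes. Each condition had 1 library, and neither the cell type nor the strain can be told apart from the library, so that no p-value was taken between cells or genotypes. The files give no read depth, so that an absent peak means only that none was called. Scores are those that the peak caller MACS gave, have no unit, and served only to rank peaks within a list. KAP1 scores ran from 80 to 3220 and WT H3K9me3 scores from 50 to 3222. Each of the 2843 autosomal SETDB1 peaks was identical to a KAP1 peak, so that SETDB1 is given below as a property of KAP1 peaks. Fibroblast identity was checked on H3K27ac. Of 21 fibroblast genes found in the annotation, 18 had a WT H3K27ac peak within 1 kb of a transcript start, and Lum, Postn and Tagln had none. The hepatocyte genes Alb, Afp and Apoa1 had none either.

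Stretches of the marked KAP1 peaks at imprinted genes are shown first, since several of the strongest marked sites lie there and share short letters. TGCCGC is the core that the imprinting factor ZFP57 reads when its CpG is methylated. Below are the 120 bp with the most TGCCGC on 1 strand in 5 marked peaks, read from NCBIM37 (mm9), with these letters in capitals. The stretches of Plagl1, Mest and Inpp5f lie in introns close to a transcript start, that of Mcts2 lies in an intron of the host gene H13, and that of Nap1l5 is coding.

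Plagl1, chr10:12810831-12810950, + strand: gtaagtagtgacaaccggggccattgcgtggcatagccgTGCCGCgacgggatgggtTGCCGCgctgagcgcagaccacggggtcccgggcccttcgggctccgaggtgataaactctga

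Mcts2, chr2:152512523-152512642, + strand: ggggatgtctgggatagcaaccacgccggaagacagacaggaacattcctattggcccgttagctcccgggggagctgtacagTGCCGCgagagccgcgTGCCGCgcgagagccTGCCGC

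Mest, chr6:30687576-30687695, + strand: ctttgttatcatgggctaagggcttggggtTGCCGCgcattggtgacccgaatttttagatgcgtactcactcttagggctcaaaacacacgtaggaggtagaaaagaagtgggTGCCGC

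Nap1l5, chr6:58856762-58856881, - strand: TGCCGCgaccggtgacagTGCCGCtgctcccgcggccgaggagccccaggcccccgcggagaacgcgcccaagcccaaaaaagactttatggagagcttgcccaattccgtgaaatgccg

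Inpp5f, chr7:135831400-135831519, - strand: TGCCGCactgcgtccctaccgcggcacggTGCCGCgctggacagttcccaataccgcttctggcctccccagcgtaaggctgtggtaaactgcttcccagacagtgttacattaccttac

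The same letters stood in KAP1 peaks of imprinted genes that were not marked in fibroblasts, of which those of Snrpn and Peg3 (introns, close to the start) are shown.

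Snrpn, chr7:67149193-67149312, - strand: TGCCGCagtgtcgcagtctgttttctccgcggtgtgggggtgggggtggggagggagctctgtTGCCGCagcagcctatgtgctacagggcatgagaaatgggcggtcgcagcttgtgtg

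Peg3, chr7:6682764-6682883, - strand: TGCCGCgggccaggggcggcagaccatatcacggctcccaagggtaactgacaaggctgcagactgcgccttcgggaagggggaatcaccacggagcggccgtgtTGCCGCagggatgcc

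A second group of marked peaks lay over the exons that encode zinc fingers. Neighbouring fingers are joined by a linker that holds the residues Gly-Glu-Lys, which the letters GGNGANAA can encode, and the repeat of the finger makes these letters recur. The 180 bp with the most of them are shown on the coding strand for 3 marked peaks, with GGNGANAA in capitals. All 3 stretches are coding sequence of the gene named.

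Zfp30, chr7:30578145-30578324, + strand: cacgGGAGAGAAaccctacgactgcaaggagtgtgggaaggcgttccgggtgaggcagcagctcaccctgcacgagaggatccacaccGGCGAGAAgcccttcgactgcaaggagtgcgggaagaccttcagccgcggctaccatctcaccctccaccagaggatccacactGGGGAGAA

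Zfp180, chr7:24890448-24890627, + strand: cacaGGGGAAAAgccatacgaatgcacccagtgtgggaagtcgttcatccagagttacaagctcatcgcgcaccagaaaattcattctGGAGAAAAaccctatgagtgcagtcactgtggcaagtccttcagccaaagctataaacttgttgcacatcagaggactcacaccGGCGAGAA

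Zfp90, chr8:108949104-108949283, + strand: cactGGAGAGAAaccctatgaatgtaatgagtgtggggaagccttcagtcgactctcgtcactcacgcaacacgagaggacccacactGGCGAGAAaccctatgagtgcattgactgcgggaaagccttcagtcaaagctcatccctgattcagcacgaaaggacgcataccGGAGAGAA

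Marked KAP1 peaks numbered 1846 of 13143, or 14.0% (95% Clopper-Pearson interval 13.5 to 14.7). Shuffles of the KAP1 peaks within their chromosome gave a mean of 118 marked peaks, with a range of 77 to 160 over 10000 shuffles, so that the observed number was 15.6-fold higher (one-sided permutation p = 0.0001, the smallest the shuffles can give). Within 1 kb of a H3K9me3 peak there were 2318 KAP1 peaks (17.6%, 17.0 to 18.3), against a shuffled mean of 254, a 9.14-fold excess (permutation p = 0.0001). Seen from the other list, 2064 of 14273 H3K9me3 peaks held KAP1 (14.5%, 13.9 to 15.0), 16.4-fold above the shuffled mean of 126 (permutation p = 0.0001). The excess fell with distance, to 4.33-fold within 5 kb and 3.06-fold within 10 kb. Most KAP1 peaks were far from any H3K9me3 peak called in fibroblasts, since 9349 (71.1%) lay over 10 kb from one. All intervals cover counting error only, and the p-values concern the placement of peaks in these libraries, not the conditions.

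H3K9me3 was most frequent at the middle of the KAP1 peaks. In marked peaks the median KAP1 peak had 65.5% of its length under H3K9me3, with 503 bp shared. The middle of the KAP1 peak was covered in 1333 of the 1846 (72.2%, 70.1 to 74.2), and 296 (16.0%) lay wholly inside a H3K9me3 peak. Marked peaks share a base by definition, so part of this cover is built in. In shuffles a mean of 55.2 middles were covered, beside a mean of 118 peaks that shared a base. The middles of both peaks lay a median of 213 bp apart. Of all KAP1 peaks, 10.1% were under H3K9me3 at their middle, 3.71% at a distance of 1 kb and 0.886% at 10 kb. The 472 KAP1 peaks that had H3K9me3 within 1 kb but shared no base with it had a median score of 147, close to the 144 of all unmarked peaks.

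**Figure D1:**
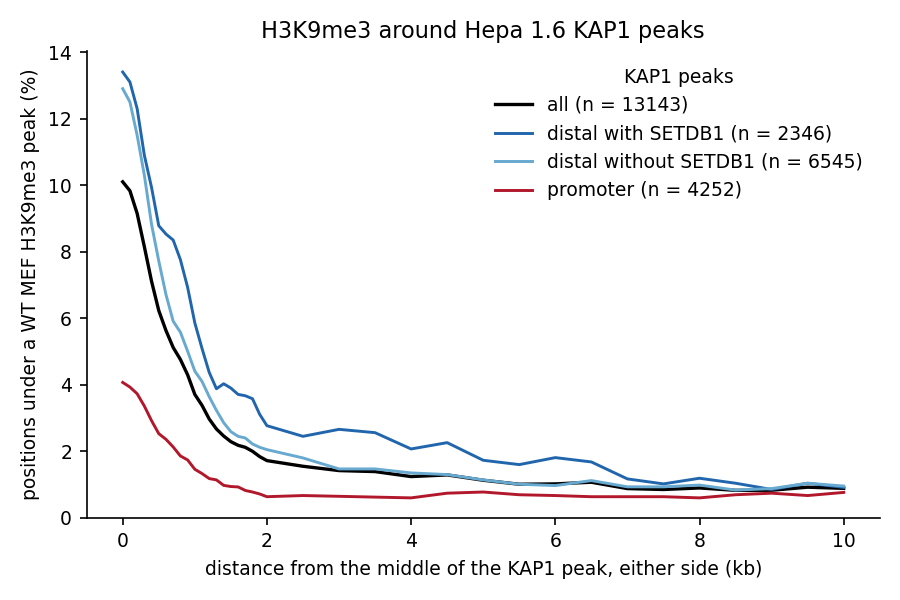
Share of positions under a WT MEF H3K9me3 peak (y axis, %) by distance from the middle of the KAP1 peak, either side (x axis, kb), for all 13143 autosomal Hepa 1.6 KAP1 peaks and for those at promoters (4252), distal with SETDB1 (2346) and distal without SETDB1 (6545). Each line is highest at the middle, 13.4% for distal peaks with SETDB1, 12.9% for distal peaks without and 4.07% for promoters, and falls below 1% at 10 kb.

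Marked peaks ranked higher in both lists. The median KAP1 score was 200.0 for marked peaks (quartiles 125 and 429.8) and 144 for unmarked ones (103 and 239), and the median widths were 756 and 696 bp. H3K9me3 peaks with KAP1 had a median score of 108 and a width of 604 bp, against 76.6 and 486 bp for those without. Over 10 classes of increasing KAP1 score the share of marked peaks was 9.20% in the lowest and 27.3% in the highest. Over 10 classes of H3K9me3 score the share with KAP1 was 8.70% in the lowest, 8.03% in the next and 31.9% in the highest. The median width of these H3K9me3 peaks was 342 bp in the lowest class and 1296 bp in the highest, and the part of width was not tested. The quartiles of marked and unmarked peaks overlapped widely, so that a high score did not mark a site by itself.

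**Figure D2:**
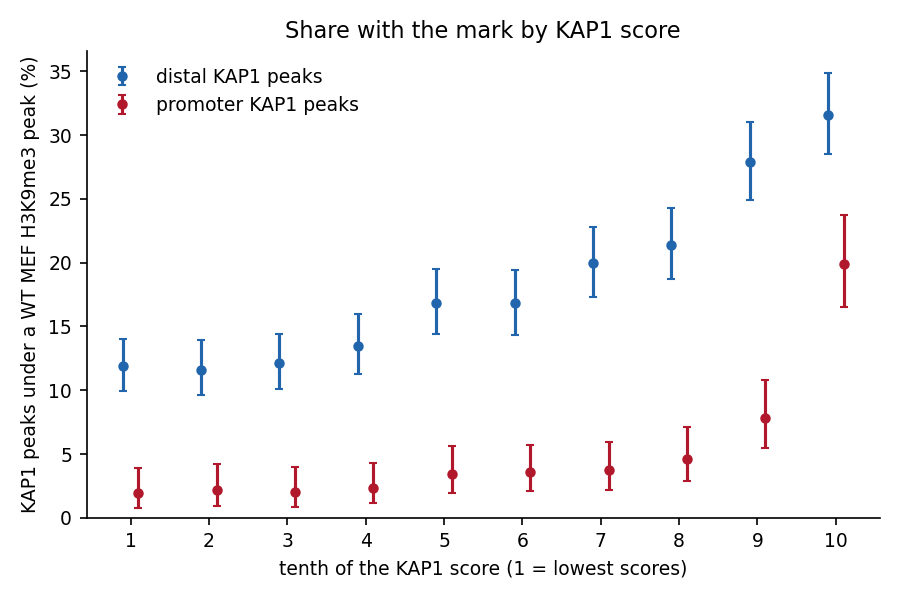
Share of KAP1 peaks under a WT MEF H3K9me3 peak (y axis, %) in 10 classes of KAP1 score (x axis, 1 is the lowest), for distal and promoter KAP1 peaks, with exact 95% intervals as bars. The share rises from 11.9% to 31.6% in distal peaks and from 1.91% to 19.9% in promoter peaks, and the distal share is the higher one in each class.

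At the very top of the scores SETDB1 was on all marked sites and on a part of the unmarked ones. Scores gathered at a ceiling of 3100, and 210 KAP1 peaks stood at this value or above. Of these, 39 were marked (18.6%, 13.6 to 24.5). All 39 marked peaks were in the SETDB1 list, against 47 of the 171 unmarked ones. WT H3K27ac lay on 5 of the 39, at Plagl1, Trappc9, Lrrc10b, Mcts2 and Gnas, and on 152 of the 171. Listed imprinted genes held 9 of the 39 and listed zinc finger genes 7.

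Marked sites were mostly away from genes. Between genes lay 63.8% of the marked and 43.4% of the unmarked KAP1 peaks, a difference of 20.4 percentage points (95% Newcombe interval 18.0 to 22.7), with the same sign on 18 of 19 chromosomes. Promoters, taken as 1 kb around a transcript start, held 233 of the marked peaks (12.6%) and 4019 of the unmarked ones (35.6%). That difference was -23.0 points (-24.6 to -21.1) and had the same sign on 19 of 19 chromosomes. Any annotated transcript start counted, also one inside a gene, so that some promoter peaks lay towards the end of a gene. Exons outside promoters held 6.93% against 3.89%, 3.04 points more (1.90 to 4.34). Introns held 16.7% against 17.2%, a difference of -0.479 points whose interval ran from -2.26 to 1.42. The share of marked peaks was thus 5.48% at promoters, 13.7% in introns, 19.4% between genes and 22.5% in exons, against 14.0% of all KAP1 peaks.

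**Figure D3:**
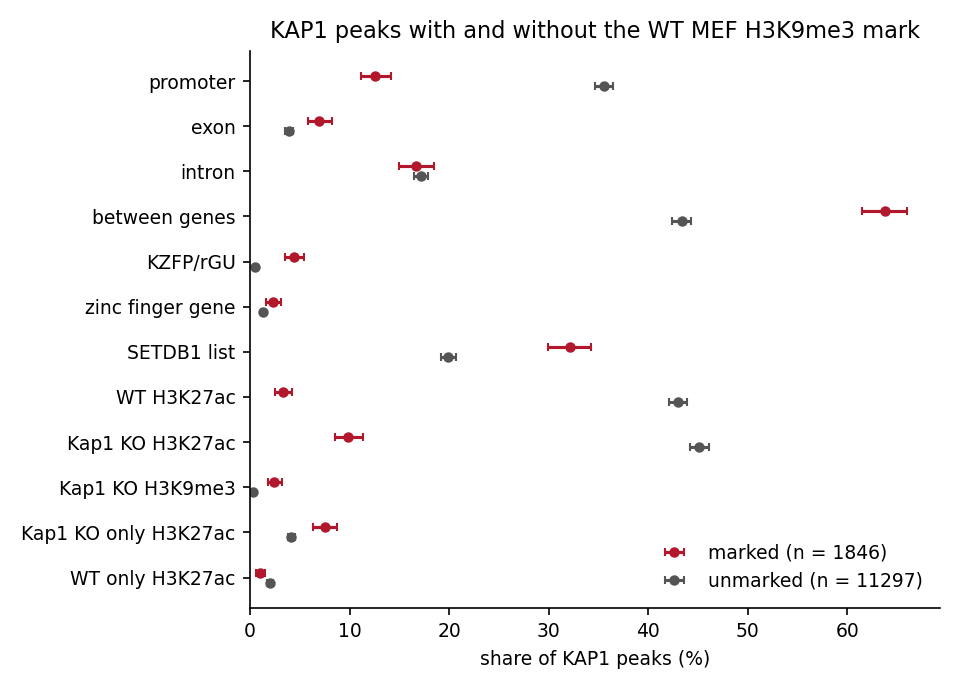
Share of KAP1 peaks (x axis, %) that lie at each place or share a base with each other list (y axis), for the 1846 marked and the 11297 unmarked peaks, with exact 95% intervals as bars. Marked peaks are fewer at promoters (12.6% against 35.6%) and on WT H3K27ac (3.30% against 43.0%), and more frequent between genes (63.8% against 43.4%) and in the SETDB1 list (32.1% against 19.9%).

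Among H3K9me3 peaks the order was different. Those with KAP1 were at promoters more often than those without, 269 of 2064 against 728 of 12209 (7.07 points more, 5.62 to 8.64), and in introns less often, 16.5% against 23.6% (-7.11 points, -8.83 to -5.29). Between genes lay 63.5% and 66.8% (-3.27 points, -5.53 to -1.05). The sites with both factor and mark thus lay at promoters more often than the rest of the mark and less often than the rest of KAP1.

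SETDB1 went with the mark at promoters, and less so elsewhere. In the SETDB1 list were 32.1% of the marked and 19.9% of the unmarked KAP1 peaks (12.1 points, 9.92 to 14.4, with the same sign on 19 of 19 chromosomes). At promoters the contrast was wide. Of 497 promoter peaks with SETDB1, 107 were marked (21.5%, 18.0 to 25.4), and of 3755 without SETDB1 126 were (3.36%, 2.80 to 3.98), 18.2 points apart (14.7 to 22.0). Distal peaks with SETDB1 were marked in 485 of 2346 cases (20.7%) and those without in 1128 of 6545 (17.2%), 3.44 points apart (1.59 to 5.35). Among distal peaks without WT H3K27ac, SETDB1 was on 29.7% of marked and 29.6% of unmarked ones, a difference of 0.144 points whose interval held 0 (-2.35 to 2.72). Among promoter peaks without WT H3K27ac it was on 94 of 204 marked and 148 of 548 unmarked ones, 19.1 points apart (11.3 to 26.8). Promoter peaks with SETDB1 and a KAP1 score below the median numbered 51, and none was marked, which allows a share of up to 6.98% (exact upper bound). Without SETDB1, 48 of 1930 promoter peaks below the median score were marked (2.49%). That difference was -2.49 points, and its interval held 0 (-3.28 to 4.54). Among distal peaks below the median score, 12.2% with and 13.4% without SETDB1 were marked (-1.20 points, -3.43 to 1.26).

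The sequence under the peaks was described by how often its letters occur in the genome. Each 24-mer in the 300 bp around the middle of a KAP1 peak was counted over the assembled chromosomes on both strands, and the median count was taken as the number of copies. In marked peaks 41.5% (39.2 to 43.8) were single-copy, and in unmarked ones 68.9% (68.1 to 69.8). Of 13297 windows spaced evenly over the autosomes, 83.2% were single-copy. Copies of 10 or more were found in 37.2% of marked and 23.2% of unmarked peaks (13.9 points, 11.6 to 16.3). The difference was 7.02 points among distal peaks (4.40 to 9.67) and 5.96 among promoter peaks (2.78 to 10.4).

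The share of marked sites did not rise steadily with copy number. Of distal single-copy KAP1 peaks 12.7% were marked (11.7 to 13.7). The share was 32.4% (29.7 to 35.3) at over 1 and under 10 copies, 31.0% (28.3 to 33.8) at 10 to under 100, 19.8% (17.6 to 22.0) at 100 to under 1000 and 8.91% (6.97 to 11.2) at 1000 or more. The share of distal peaks in the SETDB1 list rose in each class instead. It was 10.5% in the single-copy class, then 14.5%, 28.4% and 57.5%, and 85.0% in the class of 1000 or more. Within single-copy distal peaks SETDB1 went with the mark, 22.6% against 11.5% (11.1 points, 7.47 to 15.1), and from 1 to 10 copies 42.6% against 30.7% (11.9 points, 3.94 to 20.1). In the 3 classes of higher copy number the differences were 0.722, 1.61 and -2.01 points, and each interval held 0. How reads that map to several places were handled is not given in the sources used here, and its part in these shares was not tested.

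**Figure D4:**
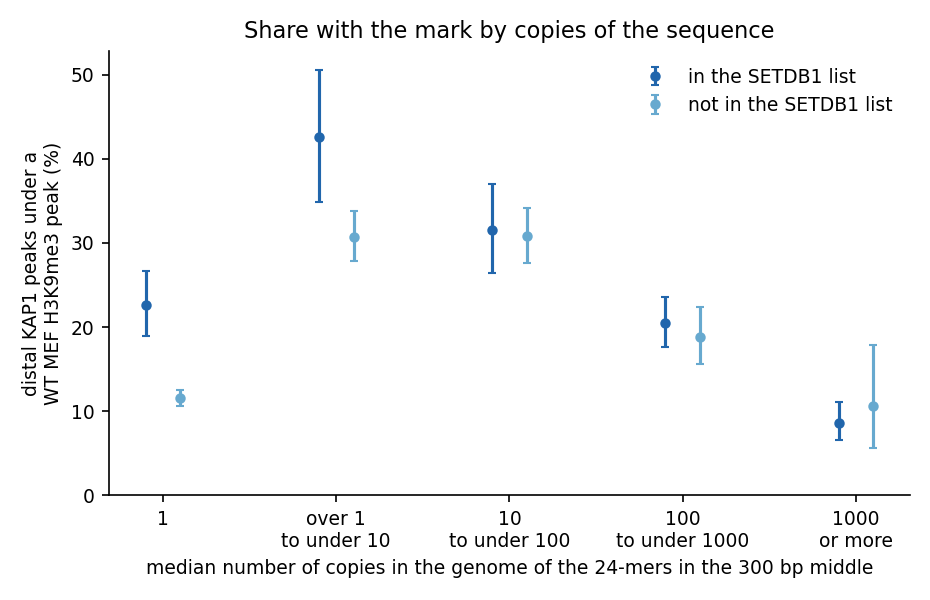
Share of distal KAP1 peaks under a WT MEF H3K9me3 peak (y axis, %) by the median number of copies of their 24-mers in the genome (x axis, 5 classes), for peaks in and not in the SETDB1 list, with exact 95% intervals as bars. Peaks with SETDB1 are higher in the classes of 1 copy (22.6% against 11.5%) and of over 1 to under 10 copies (42.6% against 30.7%), and the intervals overlap in the 3 classes to the right.

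Base composition followed the place of the peak. The median GC content was 49.0% in marked and 50.7% in unmarked peaks, and 41.7% in all 7978600 autosomal windows of 300 bp. Within distal peaks it was 48.7% and 48.3%. Promoter peaks with the mark had 65.7% GC and 8.67 CpG per 100 bp, those without 63.3% and 8.00. TGCCGC, searched on both strands, stood in 1.86% of all windows. It was found in 27.6% of marked and 30.8% of unmarked KAP1 peaks, a difference of -3.18 points (-5.35 to -0.928). The order depended on the place, a split made after seeing the data. At promoters it was found in 52.8% of marked and 26.9% of unmarked KAP1 peaks, 25.9 points more (19.3 to 32.3). In distal peaks it was found in 387 of 1613 marked against 2398 of 7278 unmarked peaks (-8.96 points, -11.3 to -6.56). Distal peaks of 1000 or more copies held TGCCGC in 58.2% of marked and 72.4% of unmarked cases, and single-copy distal peaks in 22.0% and 23.8%. At single-copy promoters the shares were 60.9% and 27.6%.

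Imprinted genes held some of the strongest marked sites. Of 36 listed genes at imprinting control regions, 33 were in the annotation, and 36 KAP1 peaks lay in them or within 5 kb. Of these peaks 13 were marked (36.1%, 20.8 to 53.8), against 720 of 7400 (9.73%, 9.06 to 10.4) around all protein-coding genes and 14.0% of all KAP1 peaks. The marked peak with the highest KAP1 score of all, 3168, lay in an exon of Cdh15, which encodes M-cadherin (chr8:125388691-125389988, H3K9me3 score 758.43). At the ceiling of 3100 stood the marked promoter peaks of Plagl1, a zinc finger transcription factor gene (chr10:12809975-12811527, H3K9me3 131.23), Mcts2 (chr2:152511872-152513254, 388.5), Nnat, which encodes neuronatin (chr2:157384810-157388085, 864.03), Gnas, which encodes a G protein subunit, at the antisense start Nespas (chr2:174120808-174122359, 122.29), Mest (chr6:30686565-30689277, 473.88), Nap1l5 (chr6:58856386-58857794, 193.29) and Inpp5f, a phosphatase gene (chr7:135830907-135832423, 91.76). The same ceiling was reached by a marked peak in an intron of Trappc9 (chr15:72639544-72641156, 190.18). Grb10, which encodes an adaptor of growth factor receptors, had marked peaks with scores of 2618 and 132. A peak at the ceiling between genes, 29587 bp from the start of Rasgrf1, was also marked with a score of 1123.37 (chr9:89774088-89775026). It lay outside the 5 kb around the gene and was picked after its values were seen.

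Not all strong imprinted sites were marked. Of the 18 imprinted peaks with a KAP1 score of 1000 or more, 11 were marked, and all 18 were in the SETDB1 list. The 7 without the mark were at Zrsr1 (3100), Snrpn (3100), Peg10 (2744), Impact (2551), H19 (2429 and 1928) and Peg3 (2041). That of Peg10 lay 173 bp from a H3K9me3 peak, and the others were between 87237 and 547445 bp from one. Snrpn, H19 and Peg3 lie on chromosome 7 and Impact on chromosome 18, where 5.40% and 3.54% of KAP1 peaks were marked. These chromosomes had the fewest called H3K9me3 peaks per Mb, 1.44 and 0.892, and the part of this was not tested. The marked peak of Inpp5f also lies on chromosome 7. Among the 7 sites without the mark, WT H3K27ac covered Zrsr1, Snrpn, Peg10, Impact and Peg3. It also covered 4 of the 11 marked ones, Plagl1, Trappc9, Mcts2 and Gnas, so that both marks were called in WT MEFs on these sites. TGCCGC was counted 12 times in the peak of Mest, 6 times in those of Plagl1 and Inpp5f, and 2 times in that of Cdh15. In peaks without the mark it was counted 10 times at Snrpn, 7 times at Peg3 and 2 times at Peg10, which overlaps the range of the marked ones.

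Zinc finger genes showed the mark at their ends. The annotation held 427 autosomal zinc finger genes by symbol, and 47 of the 224 KAP1 peaks within 5 kb of them were marked (21.0%, 15.8 to 26.9). Inside these genes lay 40 marked peaks, in 37 genes, and 35 of them (87.5%, 73.2 to 95.8) touched the last exon, where KZFP genes encode their fingers. Of 110 unmarked peaks in 93 genes 28 did (25.5%, 17.6 to 34.6), a difference of 62.0 points (45.8 to 72.1). None of the marked and 44 of the unmarked peaks had their middle in the first 20% of the gene. Since any transcript start was taken, 10 of the 40 marked and 51 of the 110 unmarked peaks counted as promoter peaks. WT H3K27ac covered 1 marked and 54 unmarked peaks.

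**Figure D5:**
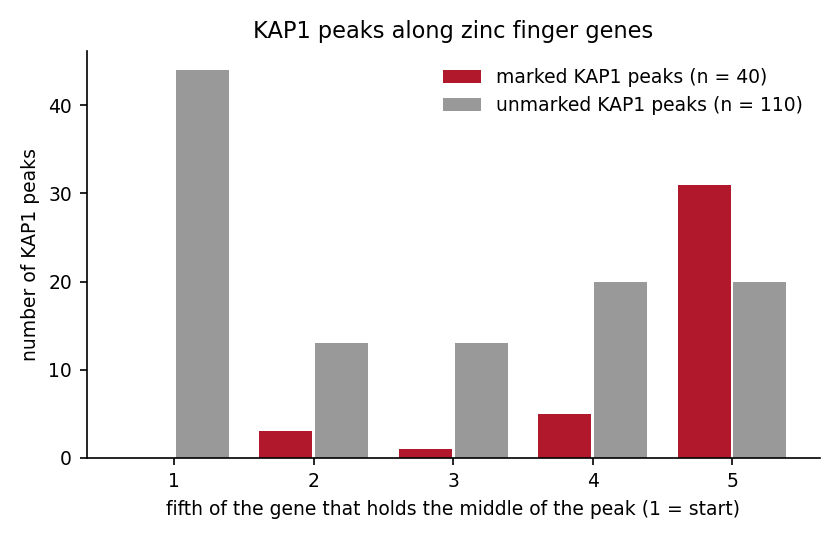
Number of KAP1 peaks (y axis) by the part of the zinc finger gene that holds the middle of the peak (x axis, 5 equal parts, 1 at the transcript start), for 40 marked and 110 unmarked peaks. Of the marked peaks 31 are in the last part and 0 in the first, and of the unmarked ones 20 and 44.

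The zinc finger genes with the highest KAP1 scores among marked peaks stood at the ceiling of 3100. In Zfp777 the peak lay in an exon (chr6:47974212-47975617) under a H3K9me3 peak of 1908.59. Zfp282 (876.26), Zfp697 (1012.91), Zfp787 (227.2) and Zfp30 (79.86) were marked in exons too. Zfp316 (chr5:144014366-144017536) had the second highest H3K9me3 score of all marked sites, 3086.72, and Zfp865 one of 140.4. These 7 peaks were all in the SETDB1 list and lacked WT H3K27ac. GGNGANAA was counted 11 times on the coding strand in the peak of Zfp30, 7 times in that of Zfp697 and not at all in that of Zfp282.

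KAP1 peaks over KZFP genes and related genetic units (rGUs) were marked in most cases, although most of the units had no KAP1 peak. Of 554 autosomal units of an expression table of the study, which holds fewer units than the study used, 126 had a KAP1 peak and 76 a marked one. Of the 133 KAP1 peaks over these units, 81 were marked (60.9%, 52.1 to 69.2), against 14.0% of all KAP1 peaks. They made up 4.39% of marked and 0.460% of unmarked peaks (3.93 points, 3.07 to 4.97). Of promoter peaks alone, 18 of 233 marked and 4 of 4019 unmarked ones lay over these units. The median KAP1 score of the 81 marked peaks over units, 260.0, was below the 308 of the 52 unmarked ones, and 38 and 28 of them were in the SETDB1 list. None of the 133 carried H3K27ac in WT MEFs, and none carried it in Kap1 KO MEFs alone. GGNGANAA stood at least 3 times in 77.8% of the marked (67.2 to 86.3) and 73.1% of the unmarked ones (59.0 to 84.4), and in 0.278% of all autosomal windows. Zfp90 belongs here, with a KAP1 score of 260, the median of the marked ones, under a H3K9me3 peak of 1584.9 (chr8:108948901-108949646). Zfp180 had a KAP1 score of 765 under H3K9me3 of 995.02, and Zfp930 one of 801 under 881.21. The highest KAP1 scores of the class after Zfp30 were 2131 at Gm12586 (H3K9me3 877.95) and 1270 at Gm17404 (87.83).

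The strongest fibroblast mark over KAP1 was at Polrmt, the gene of the mitochondrial RNA polymerase, whose promoter peak (chr10:79201528-79203316) had a H3K9me3 score of 3222.27 and a KAP1 score of 3100. After Zfp316 came an intron of Arhgap10, with 2516.44 (chr8:79972244-79973644, KAP1 3100). Strong H3K9me3 also lay on KAP1 peaks below the ceiling. The peak nearest to the pseudogene Gm9959 had 2010.48 with a KAP1 score of 280, that near Ptprs, a receptor phosphatase gene, 1822.56 with 292, and that of Ssbp4 1596.71 with 788. Muc19, a mucin gene, combined 1891.38 with 391, and its H3K9me3 was still called in Kap1 KO MEFs. AY036118, a pseudogene on chromosome 17 (chr17:39979747-39986073), had 1848.27 over 6200 bp with a KAP1 score of 2494. None of these sites carried H3K27ac in either genotype. At the ceiling of KAP1 the H3K9me3 scores differed widely, beside a median of 115 and a 90th percentile of 383 over all marked peaks. The promoter peaks of Msc, a bHLH repressor gene (chr1:14745097-14746197), and Spata3 (chr1:87914370-87915647) had H3K9me3 scores of 150.4 and 51.56. Exons of Spred2 and Habp4 had 653.96 and 578.77, and 2 peaks near Fcgr3, an Fc receptor gene, 563.05 and 521.51. A site 86003 bp from Mir466f-4 had 757.61. Since 38 marked peaks tie at 3100, these stand in the order of the chromosomes.

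More than 10 kb from H3K9me3 the highest scores were 3220 at a U6 and 3192 at a U2 gene, which encode spliceosomal RNAs (chr9:62980702-62981582 and chr11:101465875-101467334), then 3100 at Gm10222, AC106841.1 and Obsl1. These 3 are the first in the order of the chromosomes among 149 such peaks tied at 3100. Of the 5 named, Gm10222 alone lacked WT H3K27ac. The strongest H3K9me3 peaks over 10 kb from KAP1 were 3 at the promoter of Ahnak2 (3100, 2162.8 and 1933.16), 1 at 30560 bp from Atl2 (3100) and 1 in an intron of Rrp15 (1764.68). A high H3K9me3 score was thus also reached without a KAP1 peak of the hepatoma line.

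Other gene lists held few marked sites. Of the 9 KAP1 peaks around genes of the silencing machinery, such as Trim28, Setdb1 and Dnmt1, none was marked (upper bound 33.6%), and all 21 of these genes had WT H3K27ac at a start. None of 38 peaks around replication-dependent histone genes was marked (upper bound 9.25%), although 29 were in the SETDB1 list. Around ribosomal protein genes 1 of 78 was marked (1.28%, 0.0325 to 6.94), and it lay at Rps6kc1, a kinase gene that the symbol rule took in. Of 20 peaks around Hox genes 5 were marked (95% interval 8.66% to 49.1%). Among them 2 were at Hoxa13, whose H3K9me3 score reached 1384.93, and 1 each at Hoxd13 (180.18) and Hoxc13 (662.0). The last lay in Hoxa10 at a transcript start, within 5 kb of Hoxa9 (507.28). Fibroblast genes had 4 KAP1 peaks, with none marked, and hepatocyte genes 3, with 1 marked in an intron of Ambp. Both marked peaks of the germline list were at Mov10l1, a helicase gene of the piRNA pathway, out of 3 peaks. Olfactory receptor genes had 8 of 30 (26.7%, 12.3 to 45.9), with the highest KAP1 score, 1183, at Olfr94, vomeronasal receptor genes 1 of 6, at Vmn2r11, and clustered protocadherins 1 of 3, at Pcdha11. Set against the 9.73% around all protein-coding genes, the intervals of the imprinted, zinc finger and olfactory receptor lists lay above it, of which that of the olfactory receptors held the 14.0% of all KAP1 peaks, and those of the ribosomal and histone lists below it, and the other intervals held it.

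Acetylation and the mark rarely met on KAP1 sites in WT MEFs. WT H3K27ac covered 61 marked peaks (3.30%, 2.54 to 4.22) and 4854 unmarked ones (43.0%, 42.1 to 43.9), a difference of -39.7 points (-40.8 to -38.4). At promoters 12.4% of marked and 86.4% of unmarked peaks were acetylated (-73.9 points, -77.7 to -68.9). Read the other way, 1.24% of acetylated KAP1 peaks were marked (0.951 to 1.59) and 21.7% of the others (20.8 to 22.6). Marked promoters lay near a pseudogene start in 11.2% of cases (7.42 to 15.9), against 2.54% (2.07 to 3.07), and near a protein-coding start in 78.1% against 92.2%.

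H3K27ac in Kap1 KO MEFs alone was more frequent than in WT MEFs alone on both marked and unmarked sites. H3K27ac was called in both genotypes on 43 marked peaks, in WT alone on 18, in Kap1 KO alone on 138 and in neither on 1647. On unmarked peaks it was called in WT alone on 225 and in Kap1 KO alone on 470. The share with H3K27ac in Kap1 KO alone was 7.48% of marked (6.32 to 8.77) and 4.16% of unmarked peaks, 3.32 points apart (2.14 to 4.65), with the same sign on 15 of 19 chromosomes. Among peaks that had no WT H3K27ac and were distal, the difference was 0.574 points (-0.844 to 2.15), with 7.97% of marked and 7.40% of unmarked peaks. At promoters 12 of 233 marked peaks (5.15%) and 34 of 4019 unmarked ones (0.846%) had H3K27ac in Kap1 KO alone. Among promoter peaks without WT H3K27ac these were 12 of 204 marked and 34 of 548 unmarked ones (-0.322 points, -3.74 to 4.14). Among marked promoters with this pattern, those of Fcgr3, of Irx1, a homeobox gene, and of the pseudogene Gm15784 stood at the KAP1 ceiling, and they were picked after their values were seen. Of the marked distal sites with this pattern, 23.8% had 10 or more copies (16.7 to 32.2), against 41.2% of all marked distal sites (38.8 to 43.6). Since 1 library stood for the KO, the genotype cannot be told apart from it.

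Few H3K9me3 peaks of WT MEFs were called again in Kap1 KO MEFs, whether or not they held KAP1. In Kap1 KO MEFs, whose H3K9me3 list was shorter at 4241 autosomal peaks, 45 marked KAP1 peaks were still under H3K9me3 (2.44%, 1.78 to 3.25), and 29 unmarked ones were (0.257%). Of the H3K9me3 peaks of WT MEFs, 47 of 2064 with KAP1 were kept (2.28%, 1.68 to 3.02) and 400 of 12209 without KAP1 (3.28%, 2.97 to 3.61), a difference of -0.999 points (-1.65 to -0.202). Above the median H3K9me3 score it was -1.58 points (-2.51 to -0.452). The kept sites with the highest WT H3K9me3 scores were at Muc19, Gm13241, Tchh, which encodes the hair follicle protein trichohyalin, and near Hephl1, and they were picked after their values were seen.

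Marked sites were found on each autosome. Their share of KAP1 peaks ran from 3.54% on chromosome 18, where 81 H3K9me3 peaks were called, to 24.4% on chromosome 8, which held 2043. The excess over shuffles was lowest on chromosome 11, 8.92-fold, with 159 marked peaks against a shuffled mean of 17.8. It was highest on chromosome 16, 54.8-fold, with 25 against 0.456. The share of marked peaks was 13.9% on chromosome 11 and 9.65% on chromosome 16, so that the order of the folds was not that of the shares. The adjusted permutation p (Benjamini-Hochberg over 19 chromosomes) was 0.0001 on each chromosome. In windows of 1 Mb, 976 held a marked peak, 537 of them a single one and 53 at least 5. The 5 windows with the most held 51. On chromosome 4, 145 to 146 Mb, all 11 KAP1 peaks were marked, 9 of them over KZFP/rGUs and 8 with SETDB1, in a stretch with 88 H3K9me3 peaks that holds Rex2 and gene models without a name. Chromosome 10, 81 to 82 Mb, had 10 of 18 KAP1 peaks marked, 5 over KZFP/rGUs, and holds Zfp781, Zfp873 and Zfp938. The other 3 windows held none over KZFP/rGUs. They were chromosome 1, 173 to 174 Mb, with the Slamf immune receptor genes (11 of 31), chromosome 6, 124 to 125 Mb, with Cd163 and Cd4 (10 of 39), and chromosome 11, 7 to 8 Mb, with Igfbp1 and Igfbp3 (9 of 17).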

How the data were processed

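ChIP-seq of KAP1 and SETDB1 came from Hepa 1.6, and that of both histone marks from MEFs of either genotype, with 1 library each. Reads had been mapped to mm9 with Bowtie2 in its sensitive-local mode, and peaks called by the authors with MACS against total input. The submitters' processing notes give version 2.2.1 of the former and 1.4 of the latter. The deposited lists give coordinates and a MACS score, which was used as a rank only. The methods state a score minimum of 80, whereas the fibroblast lists begin at 50. How reads mapping to several places were treated is not given in the sources used here, and depth is unknown.

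Analyses covered the 19 autosomes and used scipy 1.17.1, numpy 2.4.6, pysam 0.24.0 and samtools 1.23.1 under Python 3.11.15. KAP1 peaks were shuffled 10000 times within their chromosome, as in the methods of the study, with a script tested on simulated data. Shares carry exact Clopper-Pearson 95% intervals and differences Newcombe 95% intervals, both for counting error only. Gene context came from the NCBIM37 annotation, and KZFP/rGU coordinates from an expression table of the study, without its values. This table holds 560 elements, fewer than the study used, and the others were not used here. The genome in use was not soft-masked, so that copies of 24-mers replaced a repeat share.

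Named peaks were the 10 marked ones with the highest KAP1 scores, the 10 with the highest H3K9me3 scores, the 5 of each list over 10 kb from the other, the 5 windows of 1 Mb with the most marked peaks, and up to 6 genes a list. Of the listed genes, Kcnq1ot1, Peg13, Snurf and Fsp1 were not found by symbol, and 21 of 23 KAP1 silencing genes were used. The members and lists were chosen with earlier results of these data known. Other libraries of the series were not analysed here.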

Additional observations from a re-analysis of the deposited data

How the results depend on the processing

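Of 102 alternative values, 87 kept their direction and their side of the threshold, which for a difference was an interval without 0. No paired analysis was possible because each condition had 1 library and the groups share no replicate numbers that pair samples, and no library could be left out. The excess of marked KAP1 peaks over shuffles ran from 15.1-fold with peaks kept off assembly gaps to 24.1-fold for the middle of the peak, and that within 1 kb from 3.06-fold at 10 kb to 13.3-fold above the median scores.

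The difference in introns (-0.479 points) was 0.246 with the mark within 1 kb, -2.40 with H3K9me3 scores of at least 80, 1.89 below the median KAP1 score and -7.55 without promoter peaks. Below the median KAP1 score the interval held 0 for zinc finger genes (0.765 points), the SETDB1 list (2.91) and WT only H3K27ac (-0.936), and below the median H3K9me3 score for marks kept in Kap1 KO MEFs (-1.11).

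The following were chosen after seeing the data. Among distal KAP1 peaks without WT H3K27ac the differences were 0.144 points for SETDB1, and 0.574 for Kap1 KO H3K27ac, which is then the same as Kap1 KO only H3K27ac. It was -0.322 for Kap1 KO only H3K27ac at promoters without WT H3K27ac. At promoters alone the difference turned to 2.30 points for WT only H3K27ac and to 25.9 for TGCCGC, and above the median KAP1 score it was -2.63 for TGCCGC. Copy number was added as well. Apart from the settings whose names state fewer peaks, the cause of these changes was not tested. With 1 library a condition and unknown depth, an absent peak is not an absent mark. KAP1 was read in one cell type and strain and the mark in another, and these cannot be told apart.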
